A study of Mus musculus with 9 samples.

Results

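The genes described here encode the proteins of the cytosolic ribosome. They were chosen by name: every gene whose single symbol in the array annotation had the form of a large-subunit (Rpl), small-subunit (Rps) or stalk (Rplp) protein, leaving out the ribosomal S6 kinases and genes marked as pseudogenes. This gave 57 genes of the 19938 measured: 34 of the large subunit, 20 of the small subunit and 3 of the stalk. One further symbol, Rps4l, matched but is marked as a transcribed pseudogene in RefSeq and was left out. Another 15 symbols of the same form, among them Rpl13a, Rpl3 and Rps26, occurred only on probe sets that carry several gene symbols and were added back only as an alternative.

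Expression was measured with Affymetrix Mouse Gene ST 1.0 arrays in uncultured cells dissected from the ventricular zone of newborn mice of the C57BL/Ka strain, the progenitor layer around the brain ventricles. The 3 genotypes, with 3 arrays each, were the wild type Prdm16+/+ (WT), the heterozygote Prdm16LacZ/+ (HET) and, with LacZ on both alleles, Prdm16LacZ/LacZ (KO); they differ in the number of LacZ alleles of Prdm16, a gene for a zinc-finger transcriptional regulator, and no mouse was treated. Where LacZ sits in the gene, the pups' sex and litters, and whether an array holds 1 or several pups are not given in the sources used here. No label says that the arrays of a genotype came from separate animals, so each p-value measures the spread between arrays, which may be technical.

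The cytosolic ribosome joins a small subunit, which reads the mRNA, to a large subunit, which forms the peptide bond, and its protein genes are transcribed in nearly every cell in roughly matched amounts. Their mRNAs typically begin with a cytosine and an unbroken run of pyrimidines, the terminal oligopyrimidine (TOP) tract, through which mTOR signalling governs their translation; an array measures the mRNA and not this step. In neural progenitors the demand for ribosomes is high while the cells grow and divide, and several of these genes serve as reference genes in expression studies.

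RefSeq promoter windows of 300 bases (250 before the start and 50 after it, GRCm38.p6) were matched for 46 of the 57 genes. A TOP-like run was defined as a C followed by at least 4 more C or T on the coding strand. That C had to lie within 5 bases of the RefSeq start. Such a run was found in 18 of the 46 windows (39.1%), beside 19.7% of the windows of all 27025 genes in that table. Of the 15614 genes in that table that are on the arrays, 20.4% had one. By this definition 28 of the 46 had none. A RefSeq start may differ from the start used in these cells, so a window without a run does not show an mRNA without a TOP tract. The windows below span 15 bases on each side of the start, 5′ to 3′ on the coding strand. Capitals mark the run from its first C within 5 bases of the start, and pyrimidines can extend further upstream, as in Rpl14. The windows show genes whose values are given later, the first 5 with such a run and the last 3 with none by this definition.
Rps6, chr4:86857353-86857382, minus strand: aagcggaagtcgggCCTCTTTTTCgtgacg
Rps18, chr17:33955651-33955680, minus strand: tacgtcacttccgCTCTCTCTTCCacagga
Rps15a, chr7:118116133-118116162, minus strand: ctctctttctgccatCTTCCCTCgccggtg
Rplp2, chr7:141447636-141447665, plus strand: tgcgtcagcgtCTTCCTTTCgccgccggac
Rpl14, chr9:120571502-120571531, plus strand: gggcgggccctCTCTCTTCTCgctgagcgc
Rplp0, chr5:115559452-115559481, plus strand: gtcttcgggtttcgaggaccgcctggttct
Rps12, chr10:23787195-23787224, minus strand: taccgtcatgcggccaccgccggccttttc
Rpl10l, chr12:66284387-66284416, minus strand: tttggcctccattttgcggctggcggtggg

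The ETS-factor motif CCGGAAG, searched on both strands, lay in 17 of the 46 windows (37.0%), against 9.93% over all genes of the table. The YY1 motif AAGATGGC, also searched on both strands, lay in 2 of the 46 (4.35%), against 3.19%. Over the 15614 genes of the table that are on the arrays, the shares were 13.6% for ETS and 3.77% for YY1. On the opposite strand the ETS motif begins with a short pyrimidine run, so it can overlap the TOP-like run: 11 of the 46 windows held both, and in 1 of them the run and the motif shared bases. A match is a description of the letters in the window and was not tested as a binding site.

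The labels were checked on Prdm16 itself, whose log2 values were 7.62, 7.57 and 7.23 on the WT arrays, 6.995, 7.34 and 6.998 on the HET arrays and 5.69, 6.41 and 6.17 on the KO arrays. The KO values lay below all others, with a log2 difference from WT of -1.38 (SE 0.18, limma adjusted p = 0.010). Of 9 radial glia markers, 8 lay above the array median on every array, and their median log2 difference was 0.013 in KO against WT and -0.074 in HET against WT. In KO against WT, Prom1 had -0.57 (limma unadjusted p = 0.0057, adjusted p = 0.37) and Pax6 -0.41 (unadjusted p = 0.016, adjusted p = 0.60); Pax6 had -0.41 in HET too (unadjusted p = 0.017, adjusted p = 0.99). Over the markers of neurons, choroid plexus, microglia, endothelium, red blood cells and oligodendrocyte lineage, the median log2 difference of a list lay between -0.068 and 0.113 in KO against WT and between -0.167 and 0.156 in HET against WT. Relative to the WT means, the oligodendrocyte lineage markers had array medians of 0.149, 0.172 and 0.158 on the HET arrays, with WT at most 0.043, and those of red blood cells -0.076, -0.228 and -0.198. Markers of ependymal cells, the ciliated cells that come to line the ventricles, had a summed log2 level of 32.97 to 33.2 on the WT, 32.3 to 33.7 on the HET and 28.9 to 31.6 on the KO arrays. In KO against WT, 4 of the 5 had a limma unadjusted p under 0.05, all lower in KO, against 6.15% of all genes. They included Enkur (-1.18, adjusted p = 0.054), Rsph4a (-0.96, adjusted p = 0.077) and Ccdc39 (-0.53, adjusted p = 0.50). Rsph4a was called in KO against HET (-1.19, limma adjusted p = 0.044). No ribosomal protein gene is on these lists, and the part of these differences in the results below was not tested. Array medians over all probe sets lay between 5.80 and 5.92, and the small number of arrays limits the precision of every value.

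Ribosomal protein mRNAs were among the brightest signals on these arrays. Of the 57 genes, 52 lay above the array median on all 9 arrays, 49 above the upper quartile and 39 in the brightest 10% of genes. Rpl3l and Rpl39l lay below the lower quartile on every array; they are copies of Rpl3 and Rpl39 used mainly in striated muscle and in male germ cells. RNA came from mixed cells, so fewer cells of a type and less RNA per cell cannot be told apart. The mouse genome also holds many processed pseudogenes of these genes, to which probes can hybridise. The 57 genes had 208 probe sets in all, up to 14 for Rps12, and the brightest one stands for each gene. Whether a probe set was designed to the gene itself or to a pseudogene was not checked.

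No ribosomal protein gene differed between KO and WT after adjustment. The limma fit over all genes called 0 of the 57 at an adjusted p under 0.05, where it called 90 of 19938 genes (0.451%), and the smallest adjusted p among the 57 was 0.77. At an unadjusted p under 0.05 the fit gave 1 of 57, Rps15a, where 6.15% of all genes passed. In 2 of 57 (3.51%), Rps14 and Rps15a, the KO and WT values did not overlap, against 9.98% of all genes. The differences were small: the median log2 difference was 0.033 (39 genes above 0 and 18 below), against 0.006 over all genes and 0.023 over the brightest 10%. The 39 genes were 68.4% of the 57, where 52.6% of all genes and 58.9% of the brightest 10% lay above 0.

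The limits on a difference in array signal were narrow for most genes. The log2 differences between KO and WT ranged from -0.12 to 0.34, and only Rpl10l and Rps14 were past 1.2-fold. The 95% interval of the difference lay within 1.5-fold in either direction for 53 of the 57 genes and within 2-fold for all 57. These intervals hold for the array signal. Bright signals are compressed on arrays and pseudogenes can add to them, so the intervals do not bound the mRNA difference. The median difference rested on single arrays: it was -0.018 without KO replicate 3 and -0.004 without WT replicate 3, and 0.092 without WT replicate 2 and 0.085 without KO replicate 2. The number of genes above 0 was 24 without KO replicate 3 and 26 without WT replicate 3.

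Heterozygotes were likewise without a called ribosomal protein gene. Between HET and WT the fit called 0 of the 57 and 0 of all 19938 genes (0%). At an unadjusted p under 0.05 it gave 808 genes (4.05%), of which 2 were ribosomal, Rplp1 and Rps12; these were also the 2 genes (3.51%, against 6.85% of all genes) whose HET and WT values did not overlap. Of the 57 genes, 51 (89.5%) lay above 0 in HET, where 51.5% of all genes and 68.4% of the brightest 10% did. The median log2 difference was 0.096, against 0.004 over all genes and 0.052 over the brightest 10%. With quantile normalization between arrays the median was 0.052. It was 0.022 without HET replicate 3 and 0.056 without WT replicate 3, and 0.162 without HET replicate 1. The number of genes above 0 was 38 without HET replicate 3.

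KO and HET were compared directly with the same outcome. The fit called 0 of the 57 genes and 41 of all genes (0.206%), and at an unadjusted p under 0.05 it gave 0 ribosomal protein genes against 6.16% of all genes. In 1 of 57, Rplp1, all KO values lay below all HET values (1.75%, against 6.54% of all genes with no overlap). Of the 57 genes, 48 lay below 0 and 9 (15.8%) above, where 51.0% of all genes and 40.4% of the brightest 10% lay above. The median log2 difference was -0.064, against 0.003 over all genes and -0.029 over the brightest 10%. It was -0.025 with quantile normalization, -0.002 without HET replicate 3, -0.011 without KO replicate 2, -0.146 without HET replicate 1 and -0.12 without KO replicate 3. The genes above 0 numbered 27 without HET replicate 3, 25 without KO replicate 2, 16 without KO replicate 1, 14 without HET replicate 2 and 18 with quantile normalization. The 3 comparisons share arrays, so their values are not independent of each other.

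**Figure D1:**
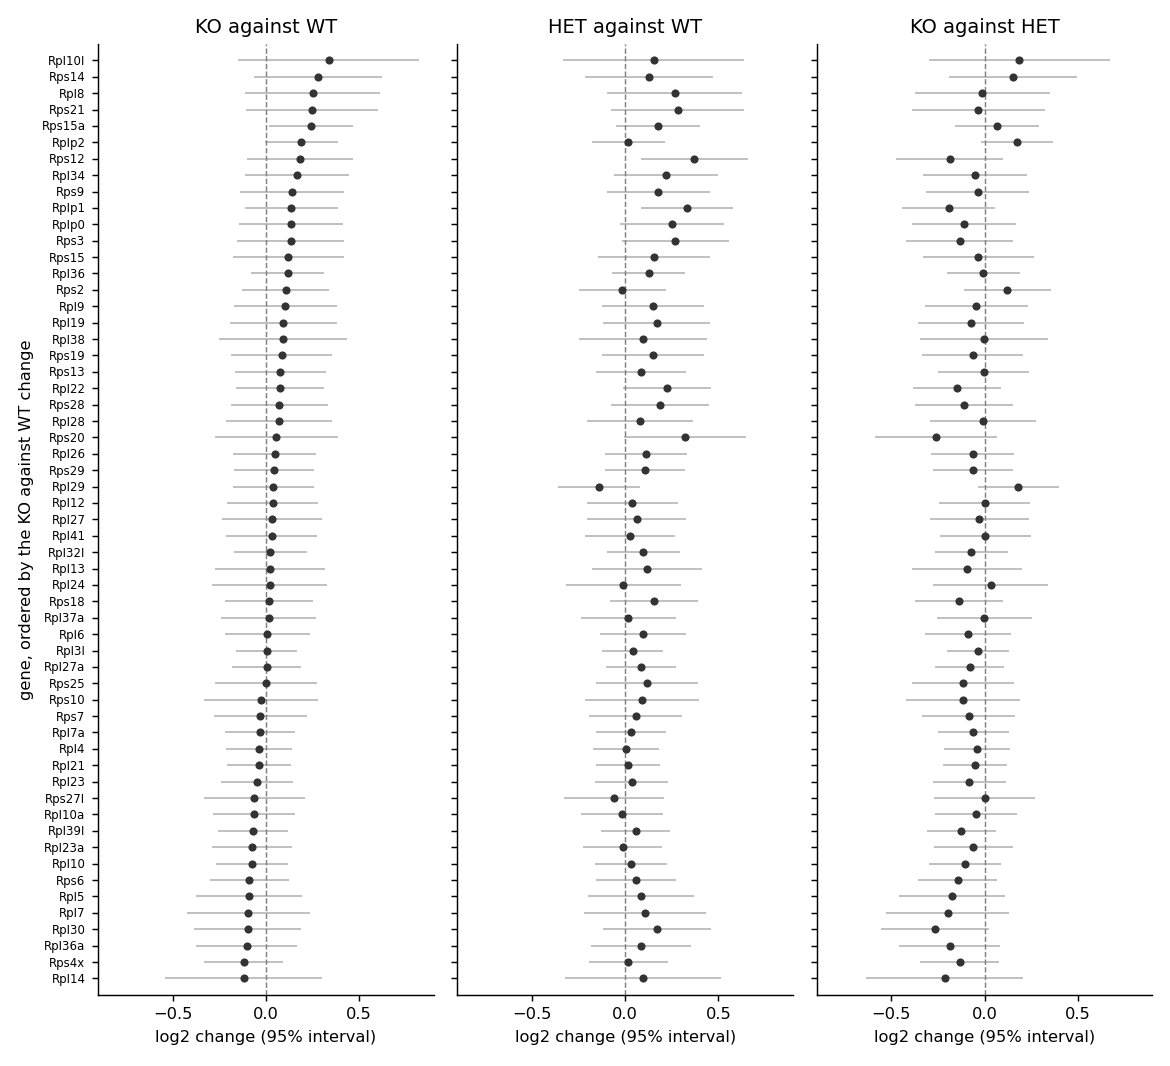
Log2 difference of each of the 57 ribosomal protein genes (points) with its 95% interval from the limma fit (lines), in KO against WT, HET against WT and KO against HET; genes are in the order of the first panel in all 3 panels. Differences lie between -0.27 and 0.37, and none passed the adjusted threshold.

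The arrays of a genotype differed from each other more than the genotypes did. Each gene's value was taken relative to its WT mean, and the median over the 57 genes was computed per array on the log2 scale. It was 0.020, 0.054 and -0.073 on WT replicates 1, 2 and 3, then -0.041, 0.064 and 0.249 on the HET arrays, and 0.038, -0.073 and 0.165 on the KO arrays. HET replicate 3 and KO replicate 3 were high, while WT replicate 3, HET replicate 1 and KO replicate 2 were below 0, and the 3 genotypes overlapped. The means over arrays were 0.001 ± 0.066 (SD, n = 3) in WT, 0.091 ± 0.147 in HET and 0.043 ± 0.119 in KO, so the differences between genotypes were smaller than the pooled SD of 0.116. Over all genes the array medians lay between -0.006 and 0.025. On HET replicate 3, the highest array, the radial glia markers had a median of -0.207 with 0 of 9 above their WT mean, and the part of this in the ribosomal values was not tested.

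**Figure D2:**
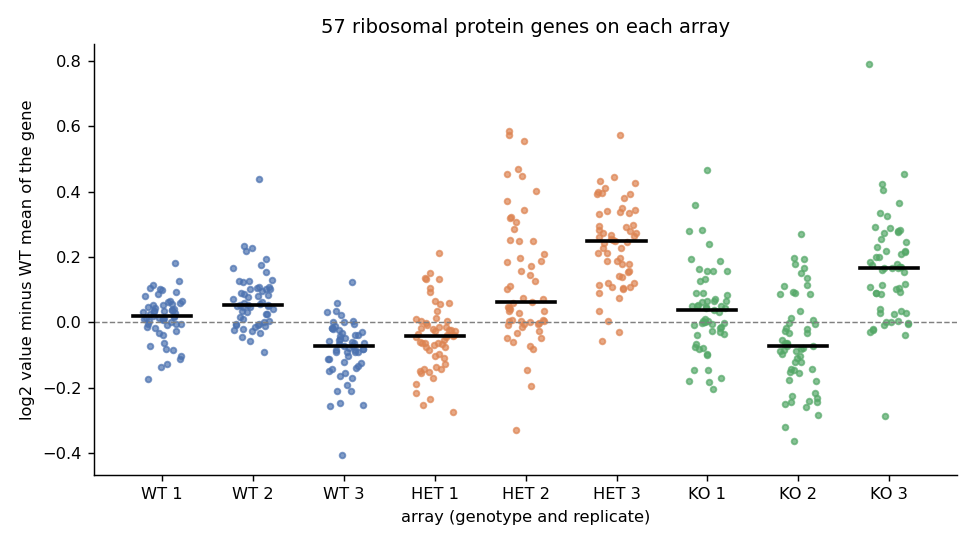
Log2 value of each ribosomal protein gene minus its WT mean (points) on each of the 9 arrays, coloured by genotype, with the median over the 57 genes as a bar. The medians run from -0.073 on WT replicate 3 and KO replicate 2 to 0.249 on HET replicate 3, and the HET and KO arrays each span both sides of 0.

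Most of the genes were high or low on the same arrays. HET replicate 3 was above HET replicate 1 in 54 of 57 genes, with a median log2 difference of 0.29, where 42.6% of all genes and 69.0% of the brightest 10% (median 0.092) were higher. KO replicate 3 was above KO replicate 2 in 50 of 57, with a median of 0.22, where 41.5% of all genes and 87.0% of the brightest 10% (median 0.24) were higher, so this gap was about as wide in bright genes at large. Within WT the widest gap was between replicates 2 and 3, where 6 of 57 genes were higher in replicate 3 and the median difference was -0.11. Of all genes 43.4% were higher there, and of the brightest 10% 33.6% (median -0.037). HET replicate 3 held the highest of the 9 values for 34 of the 57 genes, against 12.1% of all genes. It lay above every WT array in 51 of the 57, against 29.1% of all genes, and KO replicate 3 did so in 37, against 31.2%. The lowest value was on KO replicate 2 for 19 of the 57, against 13.4% of all genes, and on WT replicate 3 for 17, against 8.47%.

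The array medians depended on the scaling. With quantile normalization HET replicate 3 went from 0.249 to 0.174 and KO replicate 3 from 0.165 to 0.061, both still above 0, while KO replicate 2 changed sign, from -0.073 to 0.028, as did HET replicate 2 (-0.009) and KO replicate 1 (-0.020). With median centring no array changed sign, and HET replicate 3 lay at 0.271, KO replicate 3 at 0.228 and KO replicate 2 at -0.126. Over all 208 probe sets the array medians were 0.253 on HET replicate 3, 0.143 on KO replicate 3 and -0.125 on KO replicate 2.

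The ribosomal protein genes varied slightly more between arrays than genes at large. The median SD of a gene over the arrays of WT was 0.092, that over HET 0.163 and that over KO 0.133, against 0.077, 0.117 and 0.130 over all genes. The brightest 10% had 0.156 over KO, above the ribosomal value. Pooled over genotypes it was 0.152, against 0.131 over all genes and 0.141 over the brightest 10%. The related lists described below had pooled values from 0.119 (regulators) to 0.157 (oxidative phosphorylation), so this spread was not particular to ribosomal protein genes. After each array's ribosomal median was taken off, the pooled value of the ribosomal protein genes was 0.104. The median came from these same genes, so part of this fall is built in, and no other list was treated this way. For Rpl10, which joins the large subunit late in its assembly, the pooled SD then went from 0.095 to 0.028, and for Rpl10a, an unrelated protein of the L1 stalk, from 0.122 to 0.030. These falls were among the largest for their size. Other genes rose, among them Rplp2 from 0.096 to 0.171 and Rpl3l from 0.061 to 0.124. Before that step, the largest pooled SDs were those of Rpl10l (0.336), Rpl14 (0.286) and Rpl8 (0.241), and the smallest those of Rpl3l (0.061), Rpl21 (0.069) and Rpl4 (0.077).

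The stalk of the large subunit, which recruits the elongation factors, had the highest medians of the 3 structural groups in both comparisons with WT. Its median log2 difference was 0.14 in KO against WT and 0.25 in HET against WT, where the large subunit had 0.018 and 0.085 and the small subunit 0.076 and 0.139. A group of 3 genes gives no firm median. Rplp0, the scaffold of the stalk and a common reference gene, had log2 values of 10.49, 10.55 and 10.45 in WT, 10.44, 10.97 and 10.83 in HET and 10.55, 10.58 and 10.77 in KO. HET replicates 2 and 3 were above all WT arrays and HET replicate 1 below them, and the KO difference was 0.14 (SE 0.13, not called).

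Rplp1, one of the acidic proteins that bind Rplp0 as dimers, was measured at 9.46, 9.46 and 9.08 in WT, 9.55, 9.71 and 9.75 in HET and 9.40, 9.53 and 9.49 in KO. All HET values were above all WT and all KO values, and WT replicate 3 was the lowest of all arrays. The log2 difference was 0.33 in HET against WT (SE 0.11, limma unadjusted p = 0.014, adjusted p = 0.99) and -0.19 in KO against HET (adjusted p = 0.84). Without WT replicate 3 the HET against WT difference was 0.20. Its 2 probe sets gave 0.33 and 0.40 in HET against WT. Rplp2, the partner of Rplp1, had another order: 8.36, 8.42 and 8.27 in WT, 8.48, 8.32 and 8.29 in HET and 8.42, 8.62 and 8.58 in KO. KO replicates 2 and 3 were its 2 highest values, at a log2 difference from WT of 0.19 (SE 0.087, not called), and HET was within the WT range but for replicate 1.

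Of the small subunit, Rps12, known from work in flies for its part in the competition between cells with unequal ribosome supply, was at 9.90, 10.13 and 10.07 in WT, 10.17, 10.62 and 10.43 in HET and 10.32, 10.02 and 10.31 in KO. Every HET value was above every WT value, while KO replicate 2 lay within the WT range. The log2 difference was 0.37 in HET against WT (SE 0.13, limma unadjusted p = 0.016, adjusted p = 0.99), the largest of the 57 genes in any comparison. Its 14 probe sets all lay above 0 in this comparison, between 0.18 and 0.39. Probe sets of 1 gene are not replicates, and whether each targets Rps12 itself or a pseudogene was not checked.

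Rps15a, a protein of the small-subunit body, was measured at 8.34, 8.51 and 8.40 in WT, 8.40, 8.74 and 8.63 in HET and 8.78, 8.57 and 8.62 in KO. All KO values were above all WT values, with a log2 difference of 0.24 (SE 0.10, limma unadjusted p = 0.039, adjusted p = 0.77). Rps14, whose loss of 1 copy contributes to the anaemia of the human 5q- syndrome, was at 8.65, 8.58 and 8.53 in WT, 8.31, 8.98 and 8.84 in HET and 8.77, 8.78 and 9.04 in KO. KO lay above WT on every array by 0.28 on average (SE 0.15, not called), while the HET arrays held both its lowest value and a value near its highest. The 2 probe sets of Rps14 gave 0.11 and 0.28 in KO against WT, and -0.033 and 0.13 in HET against WT.

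**Figure D3:**
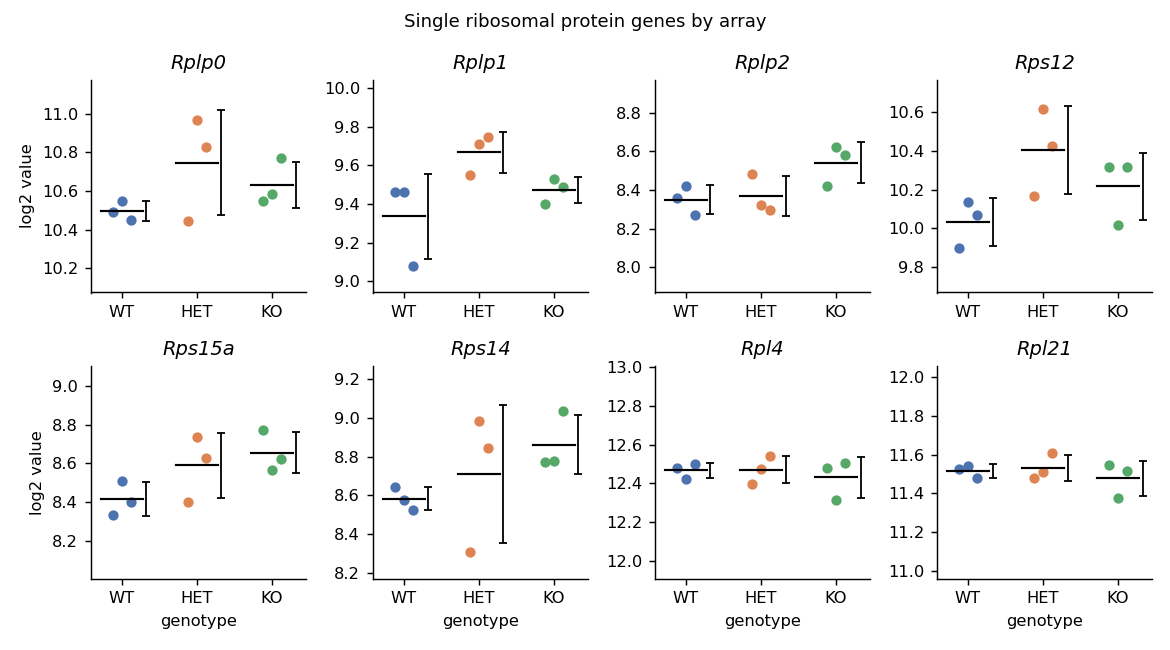
Log2 values of 8 ribosomal protein genes on each array (points) by genotype, with the mean (line) and SD (bracket, n = 3); every panel spans the same height on its log2 axis, which does not start at 0. Rplp1 and Rps12 show HET above WT and Rps14 and Rps15a show KO above WT on every array, while Rpl4 and Rpl21 differ little between arrays.

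Further genes at the upper end were not called either. Rps20, of the small-subunit head, was at 8.87, 8.99 and 8.87 in WT, 8.85, 9.36 and 9.48 in HET and 8.96, 8.83 and 9.11 in KO. HET replicates 2 and 3 stood above all others, and the log2 difference was 0.32 in HET against WT (SE 0.15) and -0.26 in KO against HET, neither called. Rps3, at the entry of the mRNA channel, had a difference of 0.27 in HET against WT and 0.13 in KO against WT. Rps21 had 0.28 and 0.25, and Rpl8, a protein near the peptidyl transferase centre, 0.27 and 0.25, in that order, none of them called; both were highest on HET replicate 2 and not on HET replicate 3.

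At the lower end, Rpl14, a large-subunit protein, and Rps4x, the X-linked protein of the small subunit, each had a log2 difference of -0.12 in KO against WT (SE 0.19 and 0.095). Rpl36a had -0.10, Rpl30 -0.097 and Rpl7 -0.093 there, and none was called. In KO against HET, Rpl30 had the lowest difference of the 57 genes (-0.27, SE 0.13), ahead of Rps20 and followed by Rpl14 (-0.21) and Rpl7 (-0.20). Against this direction, Rpl29 lay 0.18 higher in KO than in HET and 0.14 lower in HET than in WT (-0.14, SE 0.098), Rps2 had 0.12 in KO against HET, and no such value was called. For Rps2 the probe sets did not agree: their KO against WT differences ran from -0.24 to 0.11.

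Rpl4 had one of the smallest spreads, and Rps6 and Rps18 are in common use as reference genes. Rpl4, which lines the exit tunnel of the nascent chain, was at 12.48, 12.42 and 12.50 in WT, 12.40, 12.47 and 12.54 in HET and 12.48, 12.31 and 12.51 in KO. Its genotypes overlapped, with a KO against WT difference of -0.035 (SE 0.080). Rps6, the substrate of the S6 kinases downstream of mTOR, was at 11.73, 11.70 and 11.69 in WT, 11.60, 11.88 and 11.81 in HET and 11.69, 11.46 and 11.70 in KO. Here KO replicate 2 was the lowest and HET replicate 2 the highest, and the KO against WT difference was -0.088 (SE 0.096). For Rps18, of the small-subunit head, the differences were 0.016 in KO against WT and 0.15 in HET against WT (SE 0.11).

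Copies of ribosomal protein genes, some of them with restricted expression in other tissues, showed no called difference either. Rpl10l, a retrocopy of Rpl10 that replaces it in male germ cells, had low and scattered values: 4.16, 4.56 and 4.27 in WT, 4.43, 4.39 and 4.63 in HET and 4.80, 4.09 and 5.12 in KO. The KO arrays held both the lowest and the highest value, so the largest KO against WT difference of the 57 genes (0.34, SE 0.22) lay within the spread of that genotype. Rpl39l was at -0.069 and Rpl3l at 0.004 in KO against WT. Rps27l, a copy of Rps27 known as a p53 target, had -0.062 (SE 0.12).

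Genes that work with the ribosome, in lists fixed by name, were compared in the same limma fit, and 0 of them were called in any of the 3 comparisons. At an unadjusted p under 0.05 the fit gave 4 of 77 mitochondrial ribosomal protein genes and 2 of 77 oxidative phosphorylation genes in KO against WT, all higher in KO, against 6.15% of all genes. In HET against WT, against 4.05% of all genes, the first list had 6 higher and 2 lower and the second 6 higher, and 2 of 41 biogenesis genes were higher. In KO against HET, against 6.16% of all genes, 5 of 77 oxidative phosphorylation genes and 1 of 41 biogenesis genes were lower and 1 of 17 regulators was higher. Outside the symbol pattern were Fau, Rps3a1, Rpsa and the like-named Rpl7l1, whose WT mean was 5.86 where that of Fau was 9.21. These 4 genes had a median log2 difference of 0.12 in KO against WT and 0.13 in HET against WT, with Fau at 0.22 in KO. Translation factors and other TOP genes, 17 in all, had medians of 0.034 (12 above 0) and 0.108 (16 above 0). Eif4b, a helicase cofactor in initiation, had 0.20 in KO, Npm1, a nucleolar chaperone, -0.20, and Eef2, which moves the ribosome along the mRNA, 0.12.

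Ribosome biogenesis factors and mitochondrial ribosomal proteins gave similar sizes. The 41 biogenesis genes had medians of 0.038 in KO against WT (24 above 0) and 0.073 in HET against WT (35 above 0), with Utp20 at -0.23, Nob1 at 0.20 and Nhp2 at 0.13 in KO. The 77 genes of mitochondrial ribosomal proteins had 0.037 (48 above 0) and 0.045 (55 above 0), with Mrps5 at 0.29, Mrps17 at 0.24 and Mrpl20 at 0.18 in KO. The 17 regulators of ribosomal protein synthesis had 0.031 (12 above 0) and 0.042 (10 above 0); the transcription factors Myc and Mycl had 0.27 and 0.21 in KO, and Eif4ebp2, a translational repressor under mTOR, 0.20. None of the genes named in these lists passed the adjusted threshold.

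Oxidative phosphorylation, a bright housekeeping list outside the ribosome, had a median of 0.008 in KO against WT (42 of 77 above 0) and 0.113 in HET against WT (68 of 77 above 0). Atp5d, of the ATP synthase, was at 0.31, Ndufb8, of complex I, at 0.26 and Cox5a, of complex IV, at 0.24 in KO, none called. Its array medians were -0.034, 0.136 and 0.216 on the HET arrays and 0.001, -0.050 and 0.080 on the KO arrays. HET replicate 3 was thus the highest array for this list too. The translation factors and TOP genes had -0.078, 0.199 and 0.188 on the HET arrays and 0.078, -0.080 and 0.164 on the KO arrays. The brightest 10% of all genes had -0.029, 0.117 and 0.067, and 0.063, -0.113 and 0.124. These lists were high or low on many of the same arrays as the ribosomal protein genes, and the part of signal brightness in the array pattern was not tested.

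**Figure D4:**
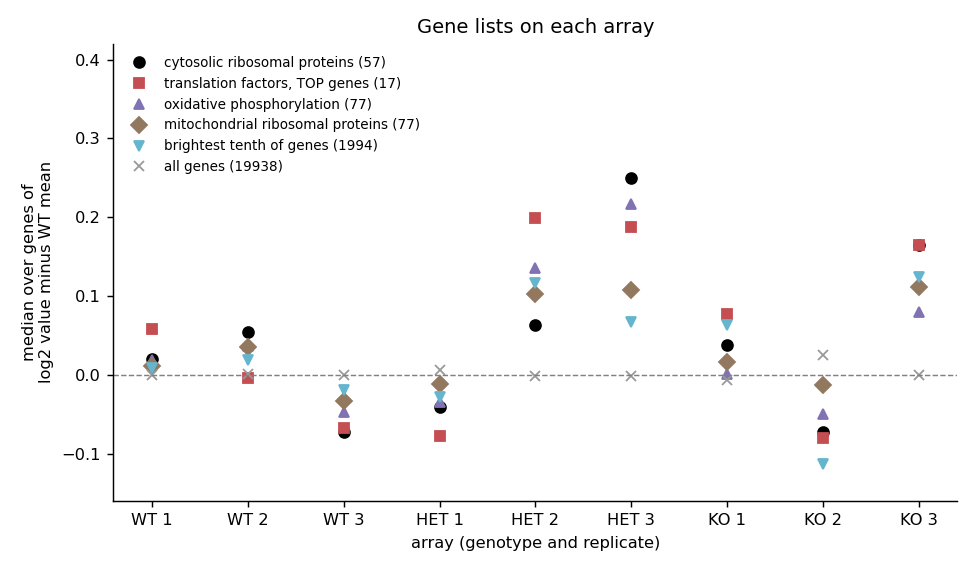
Median over the genes of a list of the log2 value minus each gene's WT mean, on each of the 9 arrays, for ribosomal proteins, 3 related lists, the brightest 10% of genes and all genes. The lists spread away from 0 on HET replicates 2 and 3, KO replicate 2 and KO replicate 3, while all genes stay between -0.006 and 0.025. On WT replicate 3 the lists other than all genes lie below 0, from -0.073 (ribosomal proteins) to -0.020 (brightest 10%).

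Bright and dimmer ribosomal protein genes were compared on each array. The 42 in the brightest 10% by mean had medians of -0.062, 0.068 and 0.253 on the HET arrays and 0.043, -0.086 and 0.159 on the KO arrays. The 15 outside it had 0.005, 0.059 and 0.212 on the HET arrays and -0.009, 0.013 and 0.178 on the KO arrays. Both were high on HET replicate 3 and KO replicate 3, while on HET replicate 1, KO replicate 1 and KO replicate 2 their medians had opposite signs.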

How the data were processed

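The authors deposited log2 values per probe set, 28940 in all for 9 arrays. Per the submitters' processing notes, RMA, affy and limma were used; versions, order and annotation are not given in the sources used here. RMA subtracts background, scales arrays to each other and summarises each probe set. Names came from the annotation supplied for the array: 21789 probe sets had 1 symbol, 1621 several and 5530 none listed. Where a gene had several probe sets the one with the highest mean was taken, giving 19938 genes. Detection calls were not used here.

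limma 3.58.1 in R 4.3.3 (lmFit, eBayes, two-sided) was run on the deposited log2 values of all 9 arrays in 1 fit with a mean per genotype. Benjamini-Hochberg adjustment ran over the whole table, and a gene was called at an adjusted p under 0.05. The fit was tested on simulated data in which each gene varied independently. Shifts shared by many genes on an array were not simulated. Levels are not comparable between genes, since probes differ in affinity and no lengths were used.

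Genes are named by rule: per comparison the 5 highest and 5 lowest members, and the 3 largest and 3 smallest SDs. Tissue-specific copies, the copy Rps27l, reference genes and called genes are named too. In other lists, called genes are named and up to 3 by smallest unadjusted p (KO against WT). Rpl10 was named outside this rule, from its values. The members and lists were chosen with earlier results of these data known. Alternatives, among them quantile normalization, centring, array weights, other probe set choices and leaving out each array, are in the closing section; adding probe sets of several symbols was chosen after seeing the data.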

Additional observations from a re-analysis of the deposited data

How the results depend on the processing

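No ribosomal protein gene was called in any comparison under any of the alternatives run, and 0 genes of any kind were called between HET and WT. The counts of all genes called were less firm. In KO against WT the 90 calls became 151 with array weights, 33 with the 6 arrays of those genotypes alone, 50 without HET replicate 1 and KO replicate 2 together, and 23 (without WT replicate 1) to 77 (without HET replicate 1) when single arrays were left out. In KO against HET the 41 calls became 24 with median centring, 8 with the 6 arrays alone and 12 (without HET replicate 2) to 75 (without HET replicate 1) when single arrays were left out. The replicate number as a block gave 19. Same-numbered arrays did not deviate together (9 correlations between -0.336 and 0.055, where the 18 pairs of different number had -0.155 to 0.308). The labels do not say what a number shares, so whether the numbers pair the arrays is not known. The block changed no call among the ribosomal protein genes. The number of ribosomal protein genes above 0 in KO against WT, 39, ran from 24 to 45 with single arrays left out. In KO against HET the 9 became 18 with quantile normalization and ran from 6 to 27. At an unadjusted p under 0.05, 16 of 57 genes (28.1%) passed in HET against WT without HET replicate 1, where 11.4% of all genes and 18.2% of the brightest 10% did. In KO against HET 10 of 57 (17.5%) passed without it, against 11.6% and 16.2%. With all arrays 2 and 0 had passed. Of the 81 differences of named genes, none of them called, 34 took the other sign under at least 1 alternative, the largest of them 0.18 in size. Among them, Rps2 went to -0.044 in KO against WT and -0.042 in KO against HET with the mean of its probe sets, Rpl14 to 0.10 in KO against WT without WT replicate 2, and Rps18 to -0.065 there without WT replicate 3. Values on the log2 scale near the array background, such as those of Rpl10l, may hold little transcript. Where calls changed, the cause was not tested.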
